A study of Homo sapiens with 29 samples.

Results

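Lysine crotonylation (Kcr) across chromatin was compared between control HCT116 cells that did and did not receive crotonate. HCT116 is a human colorectal carcinoma line of epithelial origin. Both groups carried 25 nM non-targeting siRNA, and the treated group also received 10 mM crotonic acid. The duration is given as 18 h in the text on the series and as 48 h in the protocol of the samples. Kcr was measured by chromatin immunoprecipitation and sequencing (ChIP-seq) with a pan-Kcr antibody (PTM-501), which binds crotonylated lysine on any protein. The comparison uses 6 of the 29 libraries of the series, chosen by siRNA, antibody and treatment: 4 without crotonate (numbered 1A, 1B, 2 and 3) and 2 with it (numbered 2 and 3). All 49916 regions of the deposited table were used. Libraries 1A and 1B differed by no more than read sampling (chi-squared over degrees of freedom 1.009, p = 0.0808 across regions). They were averaged and counted as sample 1, which leaves 3 samples without crotonate and 2 with it. The series also holds the same pair of groups with 35 nM DAXX siRNA (DAXX is a chaperone of histone H3.3), 16 RNA libraries in 4 groups of 4 and 1 input library. The input comes from cells with DAXX siRNA and no crotonate, so its level is not that of the cells compared here.

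Crotonylation adds a short unsaturated acyl group to the lysine side chain and takes its donor, crotonyl-CoA, from metabolism. Acyltransferases such as EP300 and CREBBP can place the mark, class I histone deacetylases and some sirtuins can remove it, and YEATS and double PHD finger domains can bind it. On histones the mark is known from promoters and enhancers of active genes. Crotonate added to a culture can be converted to crotonyl-CoA by acyl-CoA synthetases, and gut epithelium meets crotonate and related short-chain acids made by bacteria.

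The promoters of 5 genes are printed first, as examples of the starts described below. PTPN9, EI24 and ST20 lie in regions among the 8 with the strongest evidence for less Kcr with crotonate. HPCAL4 and PDLIM3 lie in regions whose level differed little while their RNA rose. The HPCAL4 region also holds the start of PPIE. Each is 300 bases from RefSeq (GRCh38.p14), 250 before to 50 after the start, 5′ to 3′ on the gene's strand. Capitals mark the GC box GGGCGG on either strand, which reads CCGCCC on the other strand.
PTPN9: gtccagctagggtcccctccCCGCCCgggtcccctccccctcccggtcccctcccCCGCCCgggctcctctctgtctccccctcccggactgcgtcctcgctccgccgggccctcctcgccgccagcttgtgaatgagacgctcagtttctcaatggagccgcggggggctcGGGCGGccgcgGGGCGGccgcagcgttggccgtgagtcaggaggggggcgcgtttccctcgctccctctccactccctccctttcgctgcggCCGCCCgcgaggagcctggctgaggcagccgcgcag
EI24: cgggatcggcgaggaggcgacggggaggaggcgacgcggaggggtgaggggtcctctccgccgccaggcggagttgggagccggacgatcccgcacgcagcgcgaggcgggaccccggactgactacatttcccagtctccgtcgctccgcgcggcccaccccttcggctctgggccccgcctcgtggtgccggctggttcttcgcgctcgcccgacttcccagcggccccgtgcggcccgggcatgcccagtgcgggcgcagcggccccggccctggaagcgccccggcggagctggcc
ST20: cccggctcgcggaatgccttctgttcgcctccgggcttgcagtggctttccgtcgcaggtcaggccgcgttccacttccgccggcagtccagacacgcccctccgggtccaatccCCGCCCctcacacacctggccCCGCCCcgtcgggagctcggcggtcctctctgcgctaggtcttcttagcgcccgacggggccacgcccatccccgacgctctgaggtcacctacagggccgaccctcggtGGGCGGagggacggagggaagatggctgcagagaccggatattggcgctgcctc
HPCAL4: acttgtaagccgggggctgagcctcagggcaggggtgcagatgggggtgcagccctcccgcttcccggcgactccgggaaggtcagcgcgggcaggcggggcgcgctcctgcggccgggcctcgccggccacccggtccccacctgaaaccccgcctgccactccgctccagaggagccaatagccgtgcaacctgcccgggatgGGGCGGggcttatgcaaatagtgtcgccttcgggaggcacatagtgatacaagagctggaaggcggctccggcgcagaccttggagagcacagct
PDLIM3: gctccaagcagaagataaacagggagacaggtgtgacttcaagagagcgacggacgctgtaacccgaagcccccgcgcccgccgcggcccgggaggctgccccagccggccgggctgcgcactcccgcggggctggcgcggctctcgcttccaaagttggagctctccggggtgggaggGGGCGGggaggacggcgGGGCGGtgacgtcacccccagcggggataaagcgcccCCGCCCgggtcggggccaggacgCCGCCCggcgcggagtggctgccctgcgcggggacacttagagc
The windows lie at chr15:75579266-75579565 (PTPN9, minus strand), chr11:125569227-125569526 (EI24, plus strand), chr15:79923703-79924002 (ST20, minus strand), chr1:39691384-39691683 (HPCAL4, minus strand) and chr4:185535458-185535757 (PDLIM3, minus strand), each wholly inside its Kcr region. GC boxes numbered 5 in PTPN9, 0 in EI24, 3 in ST20, 1 in HPCAL4 and 4 in PDLIM3, and 44.9% of 34796 RefSeq promoter windows hold at least 1. CpG dinucleotides numbered 33, 43, 32, 25 and 36 in the same order, against a median of 14 over those windows. Both kinds of region thus showed CpG-rich promoters, and the GC box did not separate the 3 genes with less Kcr from the other pair. The AP-1 motif TGANTCA occurred once, in PTPN9, and the cAMP response motif TGACGTCA once, in PDLIM3. The shares of all windows with these motifs were 7.73% and 1.84%, both strands counted.

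The 49916 regions had a median width of 1800 bp. Of these, 13743 lay within 2 kb of a gene start, 26243 lay inside a gene further from a start, and 9930 lay outside genes. The 6 libraries held 2352293 to 3314785 reads in these regions, and the median region held 25 to 33 reads in each library. At that depth a single narrow region is measured with a counting error that is large beside the differences described below. RNA of the same cells carried the epithelial markers at a median of 2351 RPM (RNA reads scaled to library size and not divided by gene length) for KRT8 and 244 RPM for EPCAM, while PTPRC and CD3E, which mark leukocytes, stayed at or under 0.0264 RPM in all 8 control-siRNA RNA libraries. COL1A1, a fibroblast collagen, was present at 11.1 to 22.7 RPM.

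After the authors' scaling by 1 factor per library, less anti-Kcr signal lay inside the regions with crotonate. Scaled reads in all regions, in units of 1e6 reads, were 3.89, 3.41 and 3.26 in samples 1, 2 and 3 without crotonate, and 3.17 and 2.84 in samples 2 and 3 with it. Both treated samples lay below all control samples. The means were 3.52 ± 0.331 (SD, n = 3) and 3.00 ± 0.230 (SD, n = 2), a difference of 14.7%. The exact permutation test gave p = 0.2 (two-sided), which is the smallest p that 3 against 2 samples can give. The 2 groups were close: control sample 3 lay only a little above treated sample 2. Relative to the input library, the same sums were 2.14, 1.87 and 1.79 times the input without crotonate and 1.74 and 1.56 times with it. The factor behind the scaled reads is not explained in the labels, so these sums describe scaled signal and not the amount of mark per cell. The plot of reads in all regions shows each sample.

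**Figure D1:**
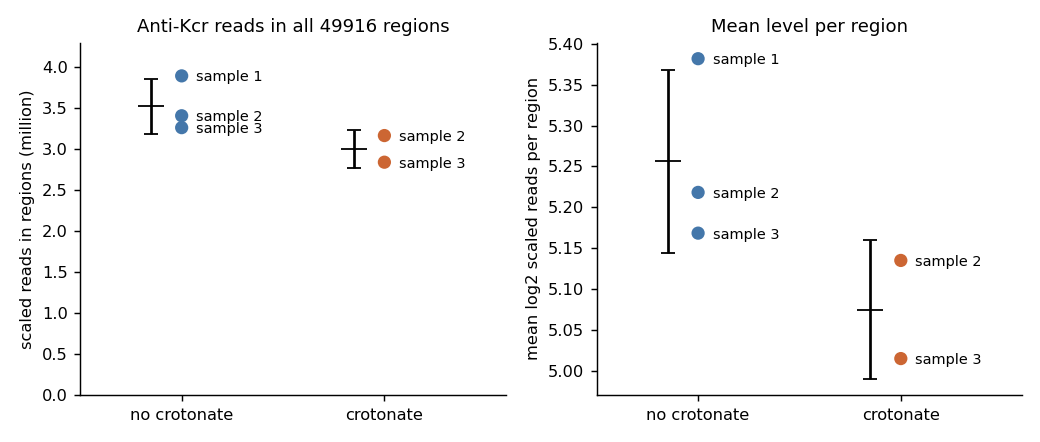
Scaled anti-Kcr reads summed over 49916 regions (left, in units of 1e6, axis from 0) and mean log2 scaled reads per region (right, axis not from 0) for 3 samples without crotonate and 2 with it; points are samples, sample 1 is the mean of libraries 1A and 1B, and the bar is the mean with SD. The treated samples, 3.17 and 2.84, sit below the controls, 3.26 to 3.89.

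Region by region, no difference passed the test. With limma on the deposited log2 values and Benjamini-Hochberg adjustment over all regions, 0 regions were higher (0.0%) and 0 were lower (0.0%) at an adjusted p under 0.05, and the smallest adjusted p was 0.0725. With 1A and 1B counted as separate samples 97 regions were lower and 0 higher, and with only the 2 control-siRNA groups in the fit 64 were lower and 0 higher. With coefficients for the sample number added (a replicate block), 410 were lower and 0 higher. At an unadjusted p under 0.05, 6371 regions were lower (12.8%) and 245 higher (0.491%), 13.3% in all. The median log2 difference, treated minus control, was -0.19, the middle 50% of regions lay between -0.37 and 0.0052, and 74.4% of regions were lower. Both treated samples lay below all 3 controls in 13300 regions (26.6%) and above all of them in 1701 (3.41%).

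This excess of lower regions depended on the scaling and on single samples. With every library centred on its median region, 2727 regions were lower and 1264 higher at an unadjusted p under 0.05 in limma, and with limma-voom on recovered reads and scaling by trimmed mean of M values (TMM) 2060 were lower and 2116 higher. The median difference was 0.011 in the latter fit and 0.0044 after quantile scaling. Without treated sample 3 the lower regions at that threshold numbered 2816, and without control sample 1 they numbered 3335. The results that follow are therefore given relative to the mean of all regions wherever classes are compared. This removes only a shift shared by all regions. The relative level at gene starts still ranked the samples in the same order as their scaled reads in all regions. How far class differences follow the enrichment of each library was not tested.

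With crotonate the level at gene starts was lower relative to the rest of the table. Relative to the mean of all regions, the 13743 regions at gene starts stood at 0.85, 0.81 and 0.79 log2 units in control samples 1, 2 and 3 and at 0.74 and 0.69 in treated samples 2 and 3. The difference was -0.10 (0.82 ± 0.027 (SD, n = 3) against 0.72 ± 0.031 (SD, n = 2)), and the groups did not overlap (exact permutation p = 0.2, the smallest possible). Regions inside genes differed by 0.029 and regions outside genes by 0.063, again without overlap and with the same p of the exact permutation test. Because the 3 classes make up all regions, a lower relative level at starts requires a higher one elsewhere on average. The values inside and outside genes are thus no separate result. On the deposited scale all 3 classes were lower with crotonate, by mean differences of -0.28 at starts, -0.15 inside genes and -0.12 outside genes. Both treated samples lay below all controls in 41.1% of start regions, in 22.1% of regions inside genes and in 18.6% of regions outside genes, and above all controls in 1.41%, 3.83% and 5.07%. At an unadjusted p under 0.05 in limma, 25.0%, 8.63% and 6.82% were lower and 0.16%, 0.564% and 0.755% higher.

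Among gene starts the difference followed the RNA level of the gene. Start regions were divided into 5 equal groups by the RNA level, in control cells without crotonate, of the most highly expressed gene that starts there. The median signal over input, in libraries with DAXX siRNA, also rose across these groups, from 0.90 to 1.15 log2 units. RNA groups were not compared at like signal or width, so RNA level and signal cannot be told apart here. The lowest group, at or under -4.28 log2 RPM, differed by 0.042 relative to all regions. The second differed by -0.051, the third by -0.15 and the 2 highest by -0.17 each, and in each of the 5 groups the treated and control samples did not overlap (exact permutation p = 0.2 for each, the smallest possible). The highest group stood at 1.41, 1.37 and 1.32 in the controls and at 1.25 and 1.14 in the treated samples. Its level per region thus remained above that of every other group in all 5 samples. Levels are not divided by width, and its regions were wider (median 3600 bp, against 2400 to 3000 bp in the other groups). Classes were also tried with 1A and 1B apart, medians, quantile scaling and each sample left out, and places with other distances to a start. Over these settings the value for gene starts stayed between -0.14 and -0.070. That for the highest RNA group stayed between -0.23 and -0.12. The replicate block and limma-voom were not applied to classes.

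Wider and more enriched regions were also lower relative to the rest, but by less. By width, the narrowest of 5 groups differed by 0.070 and the widest by -0.054, and the latter turned to 0.0089 under quantile scaling. By signal over input, ranked on the libraries with DAXX siRNA so that the compared samples had no part in the ranking, the lowest group differed by 0.053 and the highest by -0.029. Within each of these 5 groups, start regions had a lower relative difference than the other regions. In the most enriched group the values were -0.16 at starts and 0.028 elsewhere, and in the least enriched they were 0.0062 and 0.063. Groups did not overlap in 9 of these 10 subsets, the exception being starts in the least enriched group. The plot of region classes gives each sample.

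**Figure D2:**
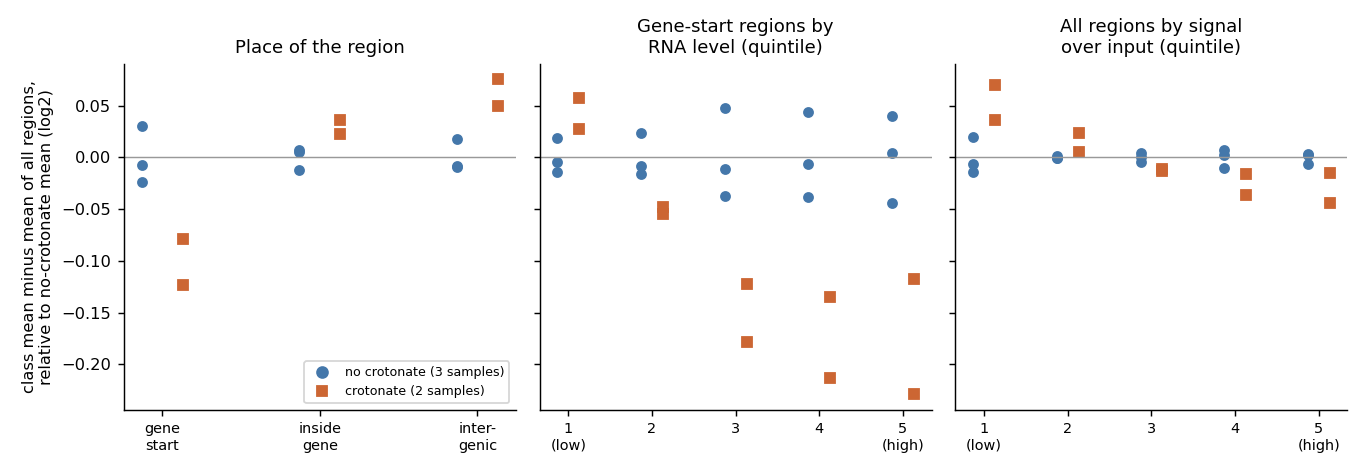
Mean log2 level of each class minus the mean of all regions, drawn relative to the mean of the 3 controls, by place (left), RNA level of the gene at the start (middle) and signal over input (right); circles are samples without crotonate and squares samples with it. The treated samples fall below the controls at gene starts, more so at starts of genes with higher RNA, and above them outside genes. As levels are relative to all regions, a fall at starts entails a rise elsewhere on average.

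Chromosome X stood apart from the autosomes. Its 624 regions lay at -1.38, -1.46 and -1.53 relative to all regions in controls 1, 2 and 3 and at -1.60 and -1.72 in treated samples 2 and 3. The difference was -0.21, and no autosome was below -0.030 (chromosome 12). At gene starts the value was -0.27 for the 338 regions on X and -0.097 for the 13405 on autosomes. The 2 groups did not overlap in either class, and exact permutation p was 0.2 for both, the smallest possible. On X, regions inside genes differed by -0.12 without overlap, and those outside genes by -0.15 with overlap. X starts were narrower (median 750 bp against 3000 bp on autosomes). They were also higher over input in the libraries with DAXX siRNA (1.70 against 1.05 log2 units). X and autosomes were not compared at like width and signal. Chromosome 21 differed by 0.090 in the other direction, but control sample 1 alone was low there (-0.28 against -0.056 and -0.074), and the groups overlapped.

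The 8 lower regions of the naming rule were those with the smallest unadjusted p whose samples did not overlap and whose level in the higher group reached the median region. CUL4B, on chromosome X (120549151 to 120550950), encodes a scaffold of cullin ubiquitin ligases, and the region lies inside the gene. Its log2 level was 5.24, 5.30 and 5.32 in the controls and 3.89 and 3.88 in the treated samples, with 3.4 in the input. The controls were nearly equal and so were the treated samples, 2.64-fold lower (log2 difference -1.40, SE 0.26, limma adjusted p = 0.127, 0.00764 to 0.536 over 20 other settings). These levels rest on 22, 37, 29 and 30 reads in libraries 1A, 1B, 2 and 3 and on 11 and 13 reads with crotonate. Ranking by p favours regions of small spread, so the closeness within each group is no separate evidence.

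YARS, the tyrosyl-tRNA synthetase gene, shares its start region (chromosome 1, 32815951 to 32819700) with S100PBP. The level there was 7.10, 7.13 and 6.93 without crotonate and 6.13 and 6.06 with it, against 5.84 in the input. YARS RNA fell from 200.5 ± 22.3 to 156 ± 12.1 RPM (SD, n = 4 each, limma adjusted p = 0.00305). PTPN9, a protein tyrosine phosphatase gene whose promoter is printed above, stood at 6.10, 6.38 and 6.27 and at 5.56 and 4.57 (chromosome 15, 75577651 to 75580200). Its treated samples lay further from each other than the nearer one lay from the lowest control, and its RNA fell from 39.7 ± 1.80 to 32.9 ± 1.88 RPM (SD, n = 4 each, limma adjusted p = 0.0114).

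HIST1H2BK encodes a histone H2B and lies in the large histone cluster of chromosome 6 (27145051 to 27146850). Its region stood at 5.85, 5.80 and 5.77 without crotonate and at 4.68 and 4.43 with it. The histone RNA did not pass the test (log2 difference 0.033, limma adjusted p = 0.894), and HIST1H2AH starts in the same region. ADGRF1, an adhesion G protein-coupled receptor gene, had 2 regions near its start. In the one at chromosome 6, 47038951 to 47041200, the level was 5.75, 5.77 and 5.70 in controls and 4.43 and 4.77 with crotonate.

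The neighbouring region that covers the ADGRF1 promoter was lower by less, 7.39, 7.27 and 7.03 against 6.92 and 6.52 (log2 difference -0.50, SE 0.20, limma adjusted p = 0.292). ADGRF1 RNA fell from 61.9 ± 5.28 to 33.1 ± 1.11 RPM (SD, n = 4 each, log2 difference -0.90, limma adjusted p = 2.43e-07), the largest fall among the genes named. The other 3 of the 8 lay at the start of ST20-MTHFS with ST20 (chromosome 15), inside CDC42SE2 at the start of the noncoding gene AC004777.1 (chromosome 5) and at the start of EI24 in a region that the table assigns to FEZ1 (chromosome 11). Log2 differences of these 3 were -0.96, -1.06 and -1.14. Adjusted p was 0.169 in limma for each of the 8 other than CUL4B. Each of the 8 passed the test in 4 to 6 of the 19 or 20 other settings.

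In these 8 regions the signal over input was 1.08 to 1.88 log2 units without crotonate and -0.061 to 0.58 with it. These values were fixed in part by the choice of the regions. A region inside BCOR, a corepressor gene on chromosome X (40102051 to 40103250), had the smallest p of the whole table but a level under the median region, and was singled out after its values were seen. It stood at 4.77, 4.45 and 4.80 against 2.43 and 2.99, with 17, 25, 16 and 21 reads against 4 and 7 (limma adjusted p = 0.0725, 0.00793 to 0.536 over 20 other settings).

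The 8 higher regions showed smaller differences and weaker evidence. A region inside SPATC1 on chromosome 8 stood at 4.64, 4.35 and 4.50 without crotonate and 5.47 and 5.27 with it (log2 difference 0.87, SE 0.26, limma adjusted p = 0.235). One inside CAMTA1, a transcription activator gene on chromosome 1 (7227601 to 7229400), stood at 4.34, 4.35 and 4.41, which is at the input level of 4.40, and at 5.29 and 5.09 with crotonate. The others lay inside PITPNM1, at the starts of the noncoding genes AC026956.2 and LINC02092, and in 3 places outside genes on chromosomes 1, 2 and 8. Log2 differences of the 8 were 0.43 to 0.95, and adjusted p in limma was 0.235 to 0.299. Of these 8 regions 2 were at a gene start, as were 7 of the 8 lower ones, against 27.5% of all regions. Of all regions without overlap, 5651 of the 13300 lower and 194 of the 1701 higher ones lay at a gene start. The rule also asked for a level at or above the median region, and starts had higher levels than other regions. The plot of named regions shows all 16.

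**Figure D3:**
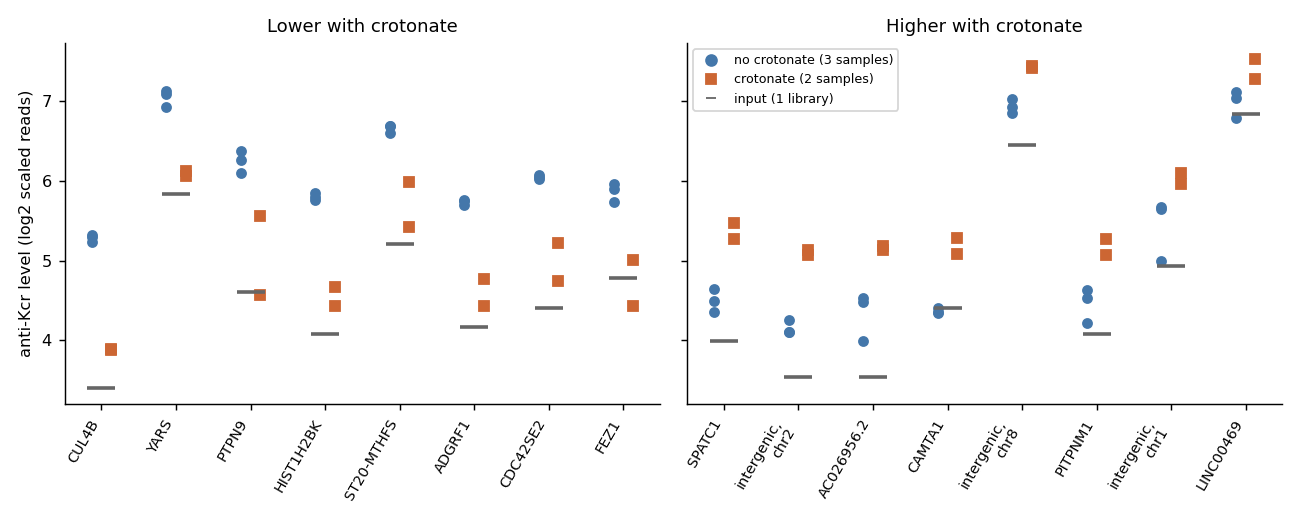
Log2 scaled anti-Kcr reads in the 8 named lower (left) and 8 named higher (right) regions, labelled by the gene the table assigns; circles are 3 samples without crotonate, squares 2 with it, and dashes the 1 input library. The regions were chosen so that circles and squares do not overlap, so the gaps between them are a description.

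Genes that handle crotonylation were examined at their own starts. Over the 16741 genes with a region there, the median log2 difference was -0.31. These genes share 11928 regions. A region that holds more than 1 start thus counts once per gene in the gene counts, shares and medians below. By RNA, 13.1% of all tested genes rose and 2.34% fell, and the lower calls grew from 420 to 1701 with RNA libraries centred on the median gene. Both treated samples lay below all controls for 46.4% of the genes with a start region and above all for 0.962%, and 30.0% were lower at an unadjusted p under 0.05 in limma. Of 8 writer genes with a region, all were lower (median -0.31), 5 without overlap of the groups. EP300, an acyltransferase with crotonyltransferase activity, stood at 7.04, 7.05 and 6.97 without crotonate and 6.58 and 6.41 with it. KAT8, the acetyltransferase of histone H4 lysines, stood at 7.30, 6.86 and 6.85 and at 6.31 and 6.37 (log2 difference -0.66, SE 0.19, limma adjusted p = 0.224). Its sample 1 was the highest of the 3 controls, and KAT8 RNA did not pass the test (limma adjusted p = 0.801). By RNA, CREBBP fell from 113 ± 6.29 to 95.3 ± 6.38 RPM and KAT2A from 63.3 ± 6.33 to 51.6 ± 1.78 RPM (SD, n = 4 each, limma adjusted p 0.0477 and 0.0179).

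Of 5 eraser genes with a region, all were lower (median -0.36), 3 without overlap. SIRT1, a deacylase of the sirtuin family, stood at 5.78, 5.45 and 5.05 and at 4.75 and 4.94. HDAC3, a class I deacetylase with decrotonylase activity, stood at 6.83, 6.58 and 6.56 and at 6.49 and 6.23. Of the erasers with a region, 1 rose in RNA, a call lost after centring: SIRT2, from 12.9 ± 0.882 to 15.8 ± 1.5 RPM (SD, n = 4 each, limma adjusted p = 0.0468). Of 7 reader genes with a region, all were lower (median -0.34), 4 without overlap. YEATS4, a YEATS domain subunit of chromatin complexes, stood at 6.36, 6.45 and 6.29 and at 6.07 and 5.54. Among 4 genes of crotonyl-CoA metabolism with a region, ECHS1, the mitochondrial enzyme that hydrates crotonyl-CoA, had the largest difference (-1.35) in a narrow region whose samples overlapped. No region of these lists passed the limma test, and the counts lie near those over all genes. EP300, HDAC3, CREBBP, KAT2A and SIRT2 are named here for their roles, after their values were seen.

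The other lists were alike in direction on the deposited scale. Centring each library on its median region moved every difference up by 0.17, and the median over all genes with a start region was -0.14 after centring, -0.078 after quantile scaling and -0.11 with limma-voom and TMM. List medians stayed negative under all 3 except for imprinted genes, but came near 0 after quantile scaling for Wnt targets (-0.017), neuronal genes (-0.025) and mitosis genes (-0.026). Cytosolic ribosomal protein genes had 31 genes with a region, 30 of them lower, 22 without overlap (71.0% against 46.4% over all genes) and a median of -0.40. Among 2801 genes of high RNA level (at least 6 log2 RPM) that were not called in RNA, the share was 57.4% and the median -0.35. RPS2, of the small subunit, stood at 8.06, 7.60 and 7.65 and at 7.14 and 7.17, in a region that the table assigns to NDUFB10. Genes of epithelial junctions and keratins had 10 of 14 without overlap and a median of -0.40. OCLN, which encodes the tight junction protein occludin, stood at 6.37, 6.25 and 6.19 and at 5.64 and 5.39 (limma adjusted p = 0.217). Of the same list, 5 genes fell and 1 rose in RNA (8 and 0 after centring).

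The list of AP-1 and immediate early genes held 19 with a region, 9 of them lower without overlap, and its median was -0.41. Over all genes with a start region 46.4% were lower without overlap, and the median was -0.31. In RNA 8 of these 19 rose and 0 fell (8 and 2 after centring), against 13.1% and 2.34% of all genes. Their most marked region was at SPRED1, an inhibitor of RAS signalling, at 6.07, 5.97 and 5.93 against 5.34 and 5.35. HDAC inhibitor response genes had 7 of 10 without overlap (46.4% over all genes) and a median of -0.41, with 5 rising in RNA (3 after centring). CRIP1, a LIM domain gene of that list, stood at 9.97, 9.53 and 9.52 against 9.33 and 9.05, in a region that also holds the start of TEDC1. Integrated stress response genes had 10 of 19 without overlap and a median of -0.33, with 9 falling in RNA (13 after centring), against 2.34% of all genes. SLC7A5, the large neutral amino acid transporter, stood at 8.10, 7.85 and 7.85 and at 7.48 and 7.42, and its RNA fell from 1075 to 778 RPM (limma adjusted p = 0.00436, n = 4 each).

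The next lists are to be read against 46.4% lower without overlap and a median of -0.31 over all genes with a start region. At starts of fatty acid oxidation and PPAR target genes the median was -0.46, with 7 of 13 without overlap. ECI1, an enoyl-CoA isomerase of mitochondria, stood at 6.86, 6.75 and 6.70 against 5.98 and 6.27. Wnt target and stem cell genes had a median of -0.27, with 6 of 12 without overlap. CD44, a cell surface receptor for hyaluronan, stood at 7.28, 7.33 and 7.01 against 6.64 and 6.33 (limma adjusted p = 0.21). H3F3A, which encodes histone H3.3, stood at 6.54, 6.51 and 6.24 against 5.82 and 5.74, in a list of H3.3 chaperones and DAXX partners with a median of -0.30 and 6 of 13 without overlap. Interferon-stimulated genes had a median of -0.28, with 8 of 15 without overlap. In RNA 3 of these 15 rose and 1 fell (2 and 1 after centring).

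Medians nearest to 0 were those of imprinted genes (-0.16, 3 of 8 without overlap) and mitosis genes (-0.22, 4 of 10). The median over all genes with a start region was -0.31, with 46.4% lower without overlap. The imprinted median turned to 0.015 after centring and to 0.063 after quantile scaling. KCNQ1OT1, an imprinted noncoding RNA, stood at 7.83, 7.76 and 7.72 against 7.52 and 7.35. AURKB, a kinase of chromosome segregation, stood at 7.04, 6.67 and 6.75 against 6.16 and 6.39. Epithelial to mesenchymal transition genes had a median of -0.28 (4 of 8), and 6 of them rose in RNA (4 after centring), against 13.1% of all genes. DNA replication genes had a median of -0.28 (9 of 21). Neuronal and axon guidance genes had -0.27 (4 of 10), and replication-dependent histones -0.34 (4 of 20 genes, which share 14 regions). Across the 19 lists, 0 genes had both treated samples above all controls, against 0.962% of all genes with a start region. At MCM2, a subunit of the replicative helicase, in a region shared with TPRA1, the level was 8.36, 8.19 and 8.25 against 7.76 and 7.75, and its RNA fell (log2 difference -0.30, limma adjusted p = 0.00942).

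RNA of the same cells with and without crotonate, 4 libraries each, was set beside Kcr at gene starts. In limma 2352 genes rose (13.1%) and 420 fell (2.34%) of 17973 tested at an adjusted p under 0.05; with libraries centred on the median gene 1458 rose and 1701 fell, so this split depends on the scaling. In bulk RNA, fewer cells of a type and less RNA per cell cannot be told apart. Without control library 1, or without any 1 of the 4 treated libraries, the genes that fell numbered 247 to 278. Of the genes that rose, 1441 had a Kcr region at the start, and of those that fell, 343. Relative to all regions the starts of genes whose RNA fell stood at 1.77, 1.73 and 1.70 in the Kcr controls and 1.59 and 1.45 with crotonate, a difference of -0.21. Starts of genes whose RNA rose stood at 0.90, 0.82 and 0.83 and at 0.76 and 0.74, a difference of -0.099. Kcr was thus lower at both, without overlap (exact permutation p = 0.2 for each, the smallest possible).

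Both treated samples lay below all controls for 60.6% of the genes that fell, 52.4% of the 10524 genes not called and 39.2% of those that rose. The 248 genes whose RNA rose by at least 1 log2 unit had a relative Kcr difference of -0.012, with overlapping groups (exact permutation p = 0.8, two-sided). These genes had low RNA without crotonate, at a median of -0.18 log2 RPM. Among genes under 2 log2 RPM, 401 that rose differed by -0.021, with overlapping groups. In the same range 2570 genes not called differed by -0.12 and 22 that fell by -0.20, both without overlap. Among genes of like RNA level, 4 to 6 log2 RPM, the differences were -0.15 for 472 genes that rose, -0.18 for 3456 not called and -0.22 for 120 that fell. The difference between these sets was not tested. Without treated sample 3 the value for genes that fell was -0.14 and that for genes that rose -0.092. With RNA calls made after centring, 1400 genes that fell gave -0.19 and 859 that rose -0.075. Across 12308 genes, Kcr and RNA differences had Pearson's r of 0.15 and Spearman's rho of 0.12. This is a description over genes that share libraries and have only 9147 regions between them.

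**Figure D4:**
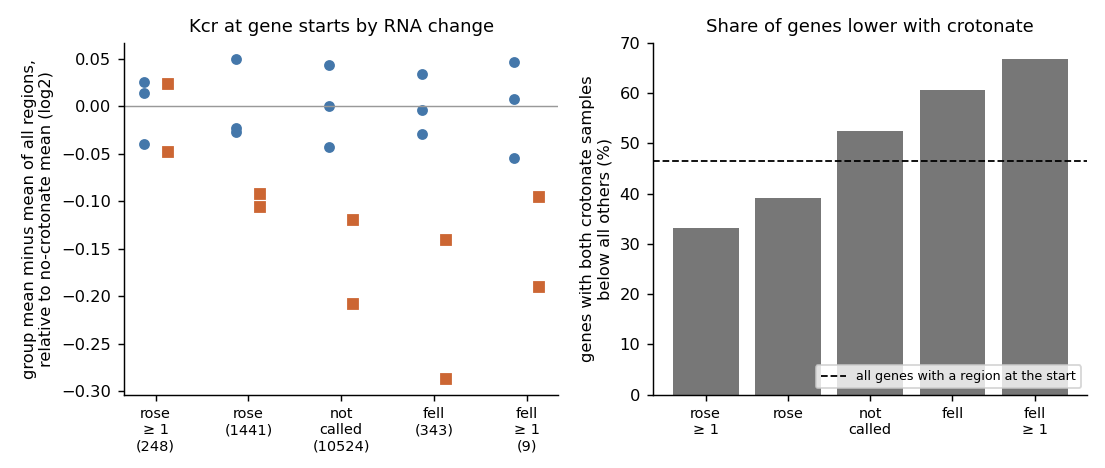
Left, mean log2 Kcr level at starts of genes grouped by RNA change (number of genes in brackets) minus the mean of all regions, relative to the mean of the 3 controls; circles are samples without crotonate and squares samples with it. Right, percent of genes with both treated samples below all 3 controls, with the value over all 16741 genes dashed: the share is 39.2% for genes whose RNA rose and 60.6% for genes whose RNA fell.

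Single genes of large RNA change showed the same spread. HPCAL4, a neuronal calcium sensor gene whose promoter is printed above, rose in RNA from 10.0 ± 0.988 to 26.6 ± 2.06 RPM (SD, n = 4 each, log2 difference 1.41, limma adjusted p = 2.55e-08). Its Kcr region stood at 7.35, 6.87 and 6.62 without crotonate and 6.89 and 6.98 with it, so the treated samples lay among the controls. That region also holds the start of PPIE, which had more RNA without crotonate, so the level is not that of HPCAL4 alone. RASSF2, a RAS association domain gene, rose in RNA from 11.9 to 24.5 RPM, with Kcr at 6.29, 6.47 and 6.22 and at 6.34 and 6.31. PDLIM3, of the PDZ and LIM domain family, rose from 9.27 to 20.6 RPM, with Kcr at 5.41, 5.15 and 5.0 and at 5.13 and 4.94.

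NTN1, the axon guidance cue netrin, differed from these. Its RNA rose from 13.8 ± 2.3 to 31.8 ± 3.28 RPM (SD, n = 4 each, limma adjusted p = 9.05e-07), while Kcr at its start was 5.66, 6.06 and 6.14 without crotonate and 5.56 and 5.14 with it (log2 difference -0.60, SE 0.23, limma adjusted p = 0.285). VGF encodes a secreted neuropeptide precursor. Its RNA rose from 46.8 to 122 RPM, with Kcr at 8.89, 8.57 and 8.41 and at 8.41 and 8.01, in a region it shares with AP1S1. UCA1, AC080038.1 and PARM1, the remaining genes of largest rise, had Kcr differences of -0.29, -0.23 and -0.21.

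Among genes of largest RNA fall, HTR7, a serotonin receptor gene, fell from 43.0 ± 2.98 to 23.4 ± 1.16 RPM (SD, n = 4 each, limma adjusted p = 2.43e-07). Its Kcr region stood at 6.90, 6.71 and 6.68 and at 6.47 and 6.04. CAV1 encodes caveolin, which shapes membrane pits. Its RNA fell from 409.6 to 231 RPM, with Kcr at 7.95, 7.79 and 7.56 and at 7.57 and 7.17, where the 2 groups overlapped. JADE2, a subunit of histone acetyltransferase complexes, fell from 85.3 to 51.5 RPM with Kcr at 8.05, 7.68 and 7.71 and at 7.49 and 7.24. IRS1, an adaptor of insulin signalling, and ALDH3B1, an aldehyde dehydrogenase gene, had Kcr differences of -0.32 and -0.29. The ALDH3B1 region also holds the start of UNC93B1. ELF3, an epithelial ETS factor gene, shares its region with AL691482.3, and both fell in RNA over a Kcr difference of -0.27.

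The regions of highest signal differed by little. A region of 107400 bp on chromosome 17 (75478201 to 75585600), over the starts of LLGL2, CASKIN2 and TSEN54, was the highest and the widest. It stood at 11.69, 11.55 and 11.45 without crotonate and 11.41 and 11.33 with it (log2 difference -0.20, SE 0.12, limma adjusted p = 0.477). TCF7L2, a transcription factor of Wnt signalling, lay in a region of 104550 bp with a difference of -0.19, PTP4A3 in one with -0.15 and LGALS3BP in one with -0.21. These values are near the median over all regions, and those at LLGL2, TCF7L2, PTP4A3 and LGALS3BP changed sign under at least 1 of the other scalings.

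With DAXX siRNA, crotonate was followed by a like pattern in other libraries, which carry the same sample numbers. Whether a batch shared by number across the siRNAs contributes was not tested. Scaled reads in regions were 11.6% lower there, and the relative difference was -0.089 at gene starts, 0.028 inside genes and 0.049 outside genes, with overlapping groups in each of the 3 classes. By RNA level of the start gene the 5 groups gave 0.044, -0.051, -0.13, -0.16 and -0.15, and chromosome X gave -0.19. Treated and untreated samples overlapped in all of these except the second RNA group. The difference between the siRNAs in the effect of crotonate passed the test in 0 of 49916 regions (0.0%, limma, adjusted p under 0.05), with 1542 at an unadjusted p under 0.05 (3.09%). Across regions the 2 sets of log2 differences had Pearson's r of 0.13 and Spearman's rho of 0.17, as a description over regions that share libraries. The 8 lower regions of the naming rule, chosen on the control-siRNA libraries, had log2 differences of -0.49 (CUL4B) to -0.17 (YARS) there, where 72.0% of all regions were lower and the median was -0.16. Of the 8 higher regions, 5 were higher there and 3 lower, from -0.36 (AC026956.2) to 0.59 (CAMTA1). The siRNA doses differ between the arms, so dose and target cannot be told apart.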

How the data were processed

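Anti-Kcr ChIP-seq and RNA-seq of HCT116 cells were analysed from the deposited tables. Per the submitters' processing notes, the tools for ChIP were Trim Galore 0.6.5, cutadapt 2.3, Bowtie2 and MACS, those for RNA were Trim Galore 0.6.2, cutadapt 2.3 and HISAT2 2.2.1, and the build was GRCh38. The sources used here do not give how regions were merged, how libraries were scaled or whether counting used strand. The authors deposited log2 values: log2 reads per region times 1 factor per library, and log2 RPM per gene, not divided by length. A value of 0 reads was entered as 0.9 read. Dividing by the factor gave whole reads (within 0.01) for 100% of values.

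The deposited log2 values were fitted with limma 3.58.1 (R 4.3.3), with 1 coefficient for each of the 4 groups of the same assay and a prior variance that follows the level. P-values were adjusted by Benjamini-Hochberg over all regions or genes tested. Libraries 1A and 1B of each siRNA were averaged. RNA genes needed 0.25 RPM in 4 libraries. Class means were compared by exact permutation over samples. The fit was tested on simulated data. Regions lie at a gene start when within 2 kb of one in the RNA table. P-values measure the spread between samples, which may be technical, since the labels do not say whether replicates are separate cultures.

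Named regions are the 8 each way of smallest p without overlap and at or above the median level (none was called), those of smallest p in each of 19 gene lists, those at starts of the 8 genes of largest RNA rise and fall, and the 3 highest and 3 widest. The 9 list regions of smallest p on the higher side (log2 differences 0.057 to 0.45, p from 0.352) are not described further. The lower regions of 2 lists are not reported here. Regions, lists and classes were chosen with earlier results of these data known. RefSeq promoters matched too few start regions for a comparison of base composition. Alternatives were other scalings, a replicate block, other distances, filters and leaving out each library.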

Additional observations from a re-analysis of the deposited data

Results flagged for a closer look

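In 32 groups of 4 RNA libraries examined for the named genes, 2 had 1 library far from the other 3; chance gives such a library in about 1 of 20 groups. PARM1 without crotonate was 16.8 RPM in library 1 and 19.6, 19.9 and 19.8 RPM in libraries 2, 3 and 4, a gap of 0.894 of the range. AC080038.1 without crotonate was 21.7 RPM in library 2 and 17.7, 18.3 and 17.8 RPM in libraries 1, 3 and 4, a gap of 0.844 of the range. With crotonate the values were 40.9 to 42.0 RPM for PARM1 and 36.8 to 45.1 RPM for AC080038.1.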

How the results depend on the processing

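With crotonate 0 regions were called either way; lower regions numbered 97 with 1A and 1B kept apart, 64 with the 2 control-siRNA groups alone, 410 with a replicate block and 1 among the 19536 regions at least 1 log2 unit above input, and 0 to 44 when 1 sample was left out (44 without treated sample 2, 10 without treated sample 3). In 2 fits added after seeing the data, the block with median centring called 1 higher and 8 lower, and the block with limma-voom and TMM 57 and 130. Same-numbered samples did not deviate together (r = 0.0038 and 0.024 over regions), but with few reads per region this cannot exclude pairs. In mean log2 scaled reads per region, number 2 lay above number 3 in every anti-Kcr group. The means were 5.22 and 5.17 without crotonate and 5.13 and 5.01 with it. With DAXX siRNA they were 5.32 and 5.17 without crotonate and 5.20 and 5.04 with it. The main fit did not use the numbers as pairs, and whether they are pairs was not settled. Control sample 1, the highest control, has no treated sample of its number, and without it the median difference was -0.13. The difference between siRNAs gave 0 calls in every setting. The median difference was -0.021 after centring, 0.0044 after quantile scaling, 0.011 with limma-voom and TMM, -0.0071 with block and centring and 0.0017 with block, limma-voom and TMM; the cause was not tested. RNA calls were 1458 higher and 1701 lower after centring and 1424 and 1010 after quantile scaling, and when 1 library was left out 1804 to 2468 and 247 to 493. Of 118 class values from other settings, 1 changed sign: the widest regions, 0.0089 under quantile scaling.

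Named regions with small differences changed sign. HPCAL4 gave 0.095 with the block, 0.16 centred, 0.22 quantile-scaled, 0.12 with limma-voom and TMM, 0.24 and 0.20 with the block added to centring and to limma-voom, and -0.18 to 0.19 without 1 sample. RASSF2 gave 0.0046 with 1A and 1B apart, 0.17 centred, 0.23 quantile-scaled, 0.24 with limma-voom and TMM, 0.14 and 0.17 with the block added, and -0.058 to 0.067 without 1 sample. In the order centred, quantile-scaled, limma-voom, block with centring and block with limma-voom, PDLIM3 gave 0.021, 0.025, 0.029, 0.062 and 0.058. PTP4A3 gave 0.023 centred, 0.040 with limma-voom, and 0.086 and 0.097 with the block added. LLGL2 gave 0.023 quantile-scaled, 0.0069 with limma-voom and 0.0020 with block and limma-voom. TCF7L2 gave 0.0041 quantile-scaled and 0.022 with limma-voom, LGALS3BP 0.050 quantile-scaled, AC080038.1 0.0040 quantile-scaled and PARM1 0.044 with limma-voom. With 25 to 33 reads in the median region, small differences of a single narrow region were not detectable.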
